A study of Mus musculus with 6 samples.

Results

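The genes described here are 9 apolipoprotein genes (Apoa1, Apoa2, Apoa4, Apoa5, Apob, Apoc1, Apoc2, Apoc3 and Apoe) and Mttp, chosen by gene name as the core of lipoprotein assembly. They are 10 of the 34745 genes in the deposited expression table, and all 10 were among the 11435 genes abundant enough to be tested. They were chosen with earlier results of these data known. In tumours, Apoa4 and Apoc2 were 6.85-fold and 5.19-fold higher than in precancerous liver, while Apoa5, Apoc3 and Apoa2 were 3.50-fold, 2.23-fold and 1.84-fold lower. Apob and Mttp differed less, and Apoe moved mainly in the female libraries.

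Liver mRNA was sequenced from C57BL/6 mice in 6 groups of 1 library each. Hepatocellular carcinoma and precancerous liver came from untreated mice transgenic for Hras12V, a constitutively active form of the HRAS oncogene, and normal liver came from untreated wild-type mice. Each tissue was taken from males aged 9 months and females aged 15 months, so that sex and age cannot be told apart. The labels do not name the promoter of the transgene, the number of mice in a library or whether tumour and precancerous tissue came from the same mouse.

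Lipoproteins carry triglyceride and cholesterol through the blood. In hepatocytes, the MTTP protein loads lipid onto apolipoprotein B as it enters the endoplasmic reticulum, which starts a very-low-density lipoprotein (VLDL) particle. Apolipoproteins A-I and A-II build high-density lipoprotein (HDL), and the small exchangeable apolipoproteins (A-IV, A-V, C-I, C-II, C-III and E) move between particles and set how fast lipase and receptors clear them. Apolipoprotein C-II activates lipoprotein lipase, C-III slows clearance, and A-V promotes it.

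The libraries held between 5996585 and 18434508 counts, with every male library shallower than every female one. Y-linked genes and Xist matched the labelled sex in all 6. All 12 hepatocyte markers were well expressed, and Alb alone took between 5.74% and 13.99% of a library's counts. The endogenous Hras gene lay between 2.05 and 3.50 FPKM. With 1 library per group, the test rests on the agreement between sexes: edgeR's quasi-likelihood test fitted sex and tissue over all 6 libraries, and calls were made under a p of 0.05 after Benjamini-Hochberg adjustment. A p-value measures only the spread between these libraries, and a lower value in bulk tissue cannot tell fewer cells of a type from less RNA per cell.

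Together the 10 genes took 2.56%, 2.56% and 3.46% of counts in male normal, precancerous and tumour liver. In females they took 3.42%, 3.37% and 2.78%. The 95% Wilson interval of the smallest library, male normal liver, ran from 2.54% to 2.57% and covers counting error alone. The total therefore ran upward in the male tumour and downward in the female tumour, with different genes behind it. Apoe alone took 1.59%, 1.38% and 0.456% of counts in female normal, precancerous and tumour liver. In males Apoe took 0.428%, 0.462% and 0.377%. Apoa1 took 1.21% of male tumour counts and 0.671% of female tumour counts.

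**Figure D1:**
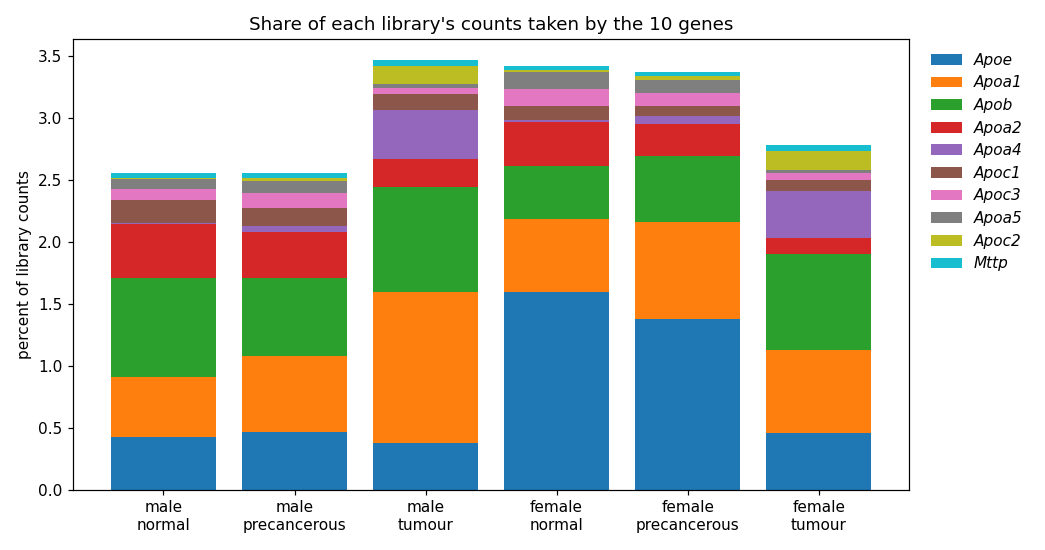
Percent of each library's counts taken by the 10 genes, stacked by gene, with 1 bar per library ordered by sex and tissue. The stacks reach between 2.56% and 3.46%, with Apoe the widest band in female normal and precancerous liver and Apoa4 visible as a band in both tumours.

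By FPKM (fragments scaled to gene length and library total), Apoa1 stood first among the 10 genes in all 6 libraries and Mttp last. Apoa1 was the 3rd most abundant gene of the whole table in male tumour and the 7th in female tumour. The middle of the order changed with tissue. Apoa4 ranked 9th of the 10 in both normal livers and 2nd in both tumours by FPKM, and per kilobase of annotated exon 9th in both normal livers, 3rd in the male tumour and 4th in the female tumour. Among all genes of the table it stood at rank 563 in male and 348 in female normal liver, and at rank 17 and 23 in the male and female tumours. The deposited FPKM values use a gene length that exceeds the annotated exon length for some members, by 2.87-fold for Apoa2 and 2.62-fold for Apoe. Per kilobase of annotated exon, Apoe ranked first in female normal and precancerous liver, Apoa2 in male normal and precancerous liver, and Apoa1 in both tumours. Comparisons of 1 gene between libraries do not depend on this length.

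Tumours were set against precancerous liver to find what separates carcinoma from the transgenic liver. Of the 10 genes, 2 rose and 3 fell. Over all tested genes 13.8% rose and 12.1% fell, 25.9% in all. The median log2 fold change of the 10 was 0.15, beside 0.03 for all tested genes.

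Apoa4, which encodes an apolipoprotein made mainly by the intestine and inducible in mouse liver, rose most. It stood at 2201 FPKM in the male tumour against 270.45 FPKM in male precancerous liver, and at 2054 FPKM in the female tumour against 347 FPKM in female precancerous liver (log2 fold change 2.78, SE 0.24, edgeR adjusted p = 0.00365). Both tumours lay far above both precancerous livers, and the sexes were close within each tissue. Of 11 enterocyte markers, 6 (Alpi, Cdx1, Cdx2, Lct, Rbp2 and Sis) had at most 3 counts in any library, and Alpi, Cdx1, Cdx2 and Sis had 0 in all. The summed FPKM of the 11 was 122 and 99.5 in male and female tumours against 78.2 and 89.0 in male and female precancerous liver. Fabp2 and Anpep made up most of these sums. Fabp2 had 79.6 and 47.7 FPKM in male and female tumours against 58.8 and 49.6 FPKM in male and female precancerous liver. Of 4 tested markers 2 rose (Apobec1 and Vil1) and none fell, beside 13.8% and 12.1% of all tested genes. Vil1, which encodes the microvillus protein villin, stood at 5.45 and 9.16 FPKM in male and female tumours against 0.213 and 0.357 FPKM in male and female precancerous liver. The part of such cells in the Apoa4 result was not tested.

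A gene on the strand opposite Apoa4, Gm10680, covers 34.8% of its exon bases. In males Gm10680 had 269, 1332 and 11769 counts in normal, precancerous and tumour liver, which is 36.1%, 39.4% and 40.1% of the Apoa4 count. In females it had 0, 1 and 0 counts in the same tissues. Reads of the pair may not be separable in the male libraries, so the male level of Apoa4 is uncertain there. The male and female differences of Apoa4 between tumour and precancerous liver were 3.02 and 2.56 on the log2(FPKM + 1) scale. The part of shared reads in these differences was not tested.

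Apoc2, the activator of lipoprotein lipase, followed. It stood at 1009 FPKM in the male tumour against 176 FPKM in male precancerous liver, and at 1067.5 FPKM in the female tumour against 219 FPKM in female precancerous liver (log2 fold change 2.38, SE 0.21, edgeR adjusted p = 0.0038). The groups did not overlap, and the male and female tumours were nearly level.

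Apoa5, whose protein promotes triglyceride clearance, had the deepest fall. It had 116 FPKM in the male tumour against 369 FPKM in male precancerous liver, and 109 FPKM in the female tumour against 407 FPKM in female precancerous liver (log2 fold change -1.81, SE 0.25, edgeR adjusted p = 0.00909). Apoc3, whose protein slows clearance, had 322 FPKM in the male tumour against 779.8 FPKM in male precancerous liver, and 347 FPKM in the female tumour against 668 FPKM in female precancerous liver (log2 fold change -1.16, SE 0.26, edgeR adjusted p = 0.0323). In both genes the tumours lay below every precancerous library. Apoa2, the second structural protein of HDL, had 1447 FPKM in the male tumour against 2411 FPKM in male precancerous liver, and 859 FPKM in the female tumour against 1687 FPKM in female precancerous liver (log2 fold change -0.88, SE 0.20, edgeR adjusted p = 0.0314). Its male tumour lay only slightly under its female precancerous library.

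The assembly genes themselves moved little. Apob had 483 FPKM in the male tumour against 358 FPKM in male precancerous liver, and 438 FPKM in the female tumour against 299.8 FPKM in female precancerous liver (log2 fold change 0.47, SE 0.26, edgeR adjusted p = 0.242). Mttp had 70.9 FPKM in the male tumour against 56.6 FPKM in male precancerous liver, and 72.1 FPKM in the female tumour against 51.2 FPKM in female precancerous liver (log2 fold change 0.38, SE 0.16, edgeR adjusted p = 0.144). For both genes the tumours lay above both precancerous libraries without passing the test.

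Males against females over all tissues gave Apoa1, the main protein of HDL, a log2 fold change of -0.02 (SE 0.28, edgeR adjusted p = 0.954). Between tumour and precancerous liver its differences had opposite signs in males and females, with 1 library per tissue and sex. It had 8192 FPKM in the male tumour against 4155 FPKM in male precancerous liver, but 4528 FPKM in the female tumour against 5291 FPKM in female precancerous liver (log2 fold change 0.38, SE 0.35, edgeR adjusted p = 0.462). Without the female tumour the log2 fold change was 0.93 and without the male tumour it was -0.23, each resting on 1 tumour library. Apoc1, which encodes a small apolipoprotein of VLDL and HDL, had 2040.1 FPKM in the male tumour against 2372 FPKM in male precancerous liver, and 1499 FPKM in the female tumour against 1373 FPKM in female precancerous liver (edgeR adjusted p = 0.806).

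In 4 genes (Apoa4, Apoc2, Apob and Mttp) both tumours lay above both precancerous livers, as did 26.6% of all tested genes. In another 4 (Apoa2, Apoa5, Apoc3 and Apoe) both lay below, as did 21.3% of all. Without the male or the female precancerous library, none of the calls among the 10 genes held. Far fewer genes were called over the whole table in these fits, which hold no spread between precancerous libraries. The log2 fold change of Apoa4 was then 2.72 (adjusted p = 0.0561) and 2.79 (adjusted p = 0.0565), the upper end of a range from 6.01e-29 over its 16 alternatives. Apoc3 was also lost without the male tumour (adjusted p = 0.0832) or the female tumour (adjusted p = 0.0863), within a range of 0.000216 to 0.238, and Apoa2 without the female tumour (adjusted p = 0.0933), within a range of 1.4e-05 to 0.252.

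**Figure D2:**
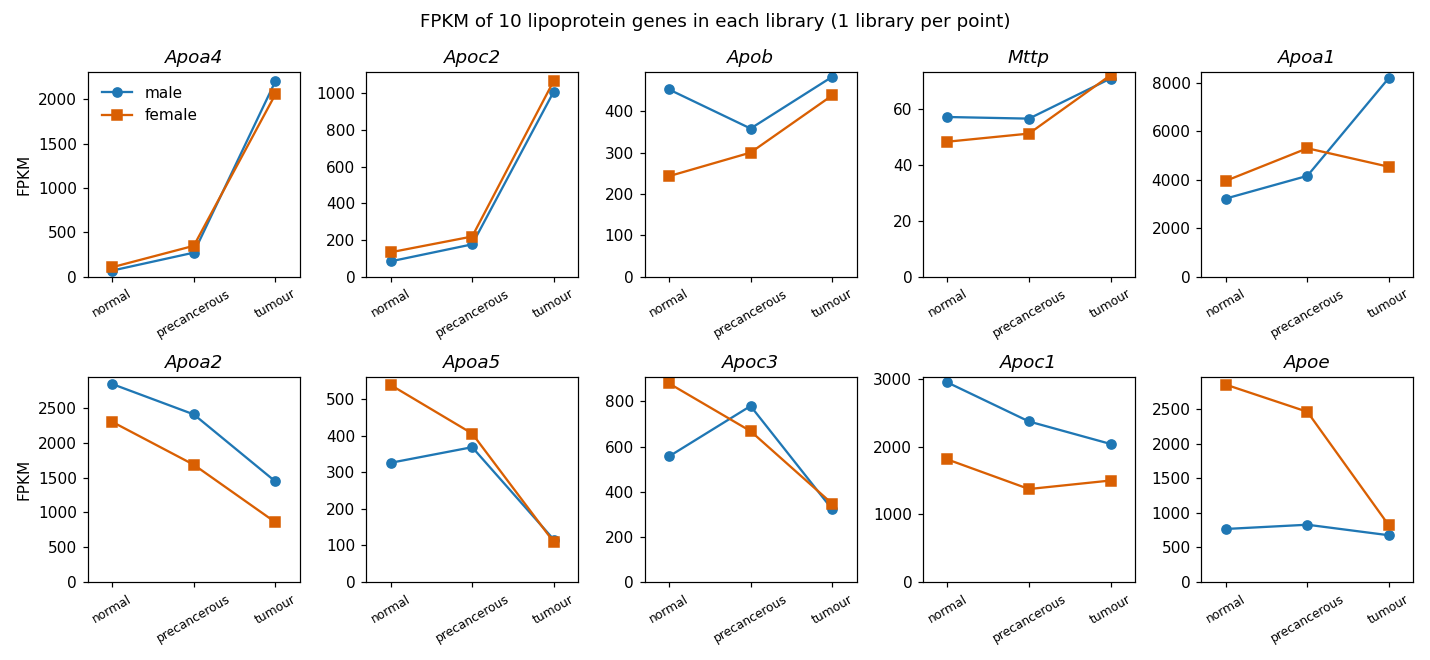
FPKM of each gene (y axis, from 0) in normal, precancerous and tumour liver (x axis), with circles for males and squares for females and 1 library per point. Apoa4 and Apoc2 climb steeply in both tumours, Apoa5, Apoc3 and Apoa2 are lowest there, and Apoe separates the sexes in normal and precancerous liver but not in tumours.

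Tumours were also set against wild-type normal liver; this comparison shares the tumour libraries with the previous one. The same 2 genes rose and the same 3 fell, while 33.4% of all tested genes changed (17.3% rose and 16.1% fell). Apoa4 stood at 2201 FPKM against 68.5 FPKM in male and at 2054 FPKM against 106 FPKM in female tumour and normal liver, a 24.4-fold rise (log2 fold change 4.61, SE 0.26, edgeR adjusted p = 0.00121). Apoc2 stood at 1009 FPKM against 83.4 FPKM in males and at 1067.5 FPKM against 133 FPKM in females (log2 fold change 3.26, SE 0.22, edgeR adjusted p = 0.00134). Apoa5 had 116 FPKM against 326 FPKM in males and 109 FPKM against 539.7 FPKM in females (log2 fold change -1.94, SE 0.25, edgeR adjusted p = 0.00543). These 3 genes stayed called under all 16 alternatives, with adjusted p of at most 0.0192, 0.0226 and 0.043.

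Apoa2 had 1447 FPKM in the male tumour against 2849 FPKM in male normal liver, and 859 FPKM in the female tumour against 2304 FPKM in female normal liver (log2 fold change -1.23, SE 0.20, edgeR adjusted p = 0.0099). Apoc3 had 322 FPKM in the male tumour against 556 FPKM in male normal liver, and 347 FPKM in the female tumour against 879.95 FPKM in female normal liver (log2 fold change -1.12, SE 0.26, edgeR adjusted p = 0.0289). Both fell less than Apoa5, and their calls were less stable: Apoa2 stayed called in 12 and Apoc3 in 10 of 16 alternatives. Apoa2 was lost without male precancerous, female normal or female precancerous liver (adjusted p = 0.0522, 0.0551 and 0.059, within a range of 2.85e-10 to 0.106). Leaving out any library but male normal liver ended the call of Apoc3, with adjusted p between 0.0539 and 0.124, within a range of 0.000307 to 0.124.

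Apob had 483 FPKM in the male tumour against 452 FPKM in male normal liver, and 438 FPKM in the female tumour against 243 FPKM in female normal liver (edgeR adjusted p = 0.255). Its male libraries were nearly level. Mttp had 70.9 FPKM in the male tumour against 57.1 FPKM in male normal liver, and 72.1 FPKM in the female tumour against 48.3 FPKM in female normal liver (log2 fold change 0.42, SE 0.16, edgeR adjusted p = 0.106). Apoa1 had 8192 FPKM in the male tumour against 3218 FPKM in male normal liver, and 4528 FPKM in the female tumour against 3949 FPKM in female normal liver (log2 fold change 0.78, SE 0.35, edgeR adjusted p = 0.147). Without the female tumour its log2 fold change was 1.34 and without the male tumour it was 0.17, each resting on 1 tumour library. Apoc1 had a log2 fold change of -0.43 (edgeR adjusted p = 0.137). Both tumours lay above both normal livers in 4 genes (Apoa1, Apoa4, Apoc2 and Mttp), as in 26.7% of all tested genes, and below in 3 (Apoa2, Apoa5 and Apoc3), as in 22.1% of all.

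Precancerous liver was set against normal liver to show what transgenic tissue carries outside the tumour. None of the 10 genes passed the edgeR test, where 0.254% of all tested genes did (0.105% rose and 0.149% fell). At an unadjusted p under 0.05 there were 2, Apoa4 and Apoc2, beside 1807 of the 11435 tested genes. DESeq2 called those 2, and limma on log2(FPKM + 1) called 0. Apoa4 stood at 270.45 FPKM in male precancerous liver against 68.5 FPKM in male normal liver, and at 347 FPKM in female precancerous liver against 106 FPKM in female normal liver (log2 fold change 1.83, SE 0.23, edgeR adjusted p = 0.0678). It passed without the male tumour (adjusted p = 0.0367) or the female tumour (adjusted p = 0.0114), within a range of 6.13e-12 to 0.58 over 16 alternatives. Apoc2 stood at 176 FPKM in male precancerous liver against 83.4 FPKM in male normal liver, and at 219 FPKM in female precancerous liver against 133 FPKM in female normal liver (log2 fold change 0.89, SE 0.20, edgeR adjusted p = 0.167).

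The order normal, precancerous, tumour thus held for both genes in both sexes. Apoa4, Apoc2 and Apoa1 were the 3 genes with both precancerous livers above both normal livers, a pattern shown by 13.4% of all tested genes. None of the 10 had both below, against 12.9% of all. Apoa1 had 4155 FPKM in male precancerous liver against 3218 FPKM in male normal liver, and 5291 FPKM in female precancerous liver against 3949 FPKM in female normal liver (edgeR adjusted p = 0.634). The other 7 genes had log2 fold changes between -0.35 and 0.04.

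**Figure D3:**
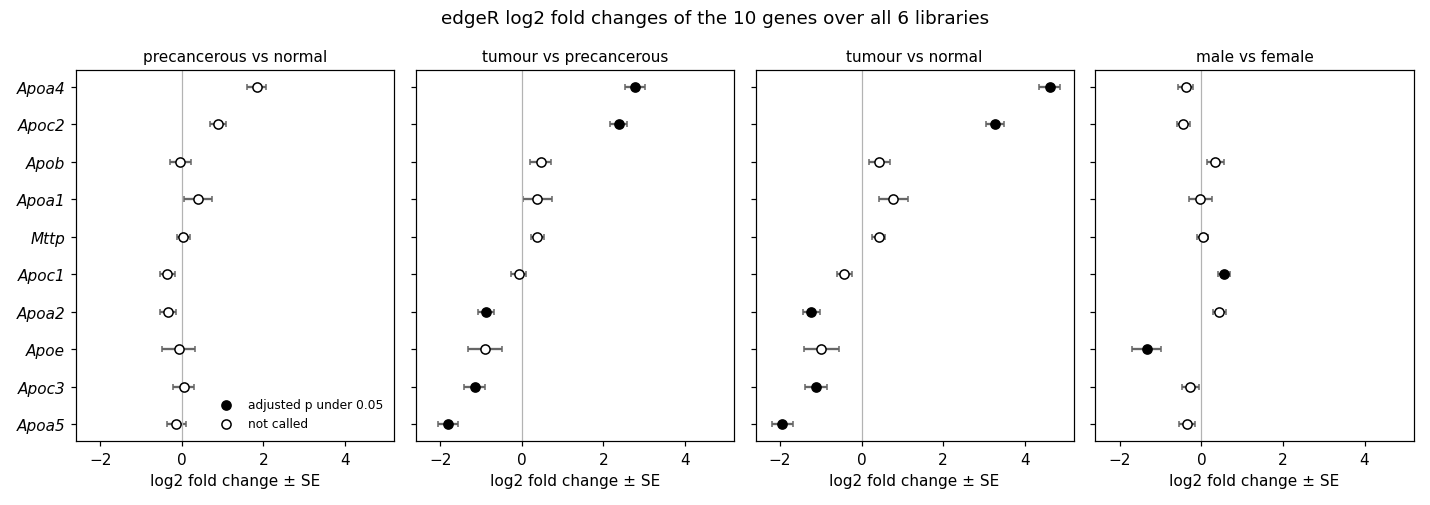
Log2 fold change with its SE (x axis) for each gene (y axis) in the 4 comparisons of the edgeR fit, with filled points at an adjusted p under 0.05. Apoa4 and Apoc2 stand to the right in each panel that involves tumours, where Apoa2, Apoc3 and Apoa5 are filled on the left.

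Of the 10 genes, 7 lie in 2 clusters of the GRCm38 build. On chromosome 9, Apoa1 (chr9:46228580-46230466), Apoc3 (chr9:46232933-46235636), Apoa4 (chr9:46240696-46243459) and Apoa5 (chr9:46268633-46271919) span 43.34 kb. Apoc3 is on the minus strand and the other 3 on the plus strand. Apoa4 rose between its neighbours Apoc3 and Apoa5, which both fell. On the minus strand of chromosome 7, Apoc2 (chr7:19671579-19681423), Apoc4, Apoc1 (chr7:19689484-19692658) and Apoe (chr7:19696109-19699166) span 27.59 kb. The table's Apoc2 entry runs across Apoc4, which encodes a further C apolipoprotein. A same-strand transcript, Gm44805, covers 79.5% of the Apoc2 exon bases and 4.69% of those of Apoc4. Opposite-strand transcripts cover 34.9% of the exon bases of Apoa4 (Gm47528) and 20.8% of those of Apoa5 (Gm47544). For Mttp they cover 7.36% and 2.13% (Trmt10a and Gm43691). Gm44805, Gm47528 and Gm47544 have no entry among the deposited genes. The levels of the overlapped genes are uncertain to the extent that reads were shared. Apoc4 had 380 FPKM in the male tumour against 725 FPKM in male precancerous liver, and 452 FPKM in the female tumour against 871 FPKM in female precancerous liver (log2 fold change -0.97, SE 0.16, edgeR adjusted p = 0.0142). The pair thus moved in opposite directions within 1 locus. Apoa2 (chr1:171225054-171226379), Apob (chr12:7977648-8016835) and Mttp (chr3:138089854-138144968) stand apart from both clusters.

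**Figure D4:**
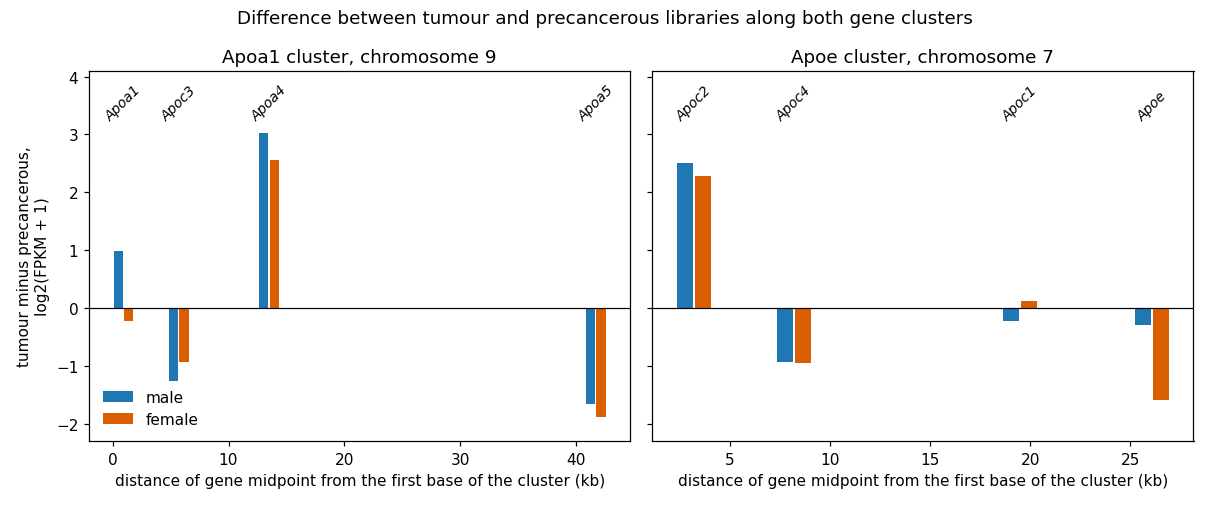
Difference between tumour and precancerous liver in log2(FPKM + 1) (y axis) for the genes of the chromosome 9 and chromosome 7 clusters, placed by the distance of the gene's midpoint from the start of the cluster in kb (x axis), with males left of females. Apoa4 and Apoc2 point upward between or beside genes that point downward.

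Promoter windows were available for 8 of the 10 genes from RefSeq (GRCm38.p6). The windows of Apoa4 and Apoc2, which rose, and of Apoa5 and Apoa2, which fell, are shown to set genes of opposite direction side by side. Each is written 5′ to 3′ on the gene's strand, from the 250 bases before the RefSeq start site and without bases in protein-coding exons, so that the windows of Apoa4 and Apoc2 hold 102 and 141 bases. Capitals mark the letters of the motifs found.
Apoa4 (chr9:46240594-46240695, plus strand): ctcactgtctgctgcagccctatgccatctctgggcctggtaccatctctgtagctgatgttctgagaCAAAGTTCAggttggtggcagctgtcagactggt
Apoc2 (chr7:19677942-19678082, minus strand): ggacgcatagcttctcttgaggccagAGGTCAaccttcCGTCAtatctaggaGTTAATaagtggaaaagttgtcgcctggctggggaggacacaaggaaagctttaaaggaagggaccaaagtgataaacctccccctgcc
Apoa5 (chr9:46268383-46268632, plus strand): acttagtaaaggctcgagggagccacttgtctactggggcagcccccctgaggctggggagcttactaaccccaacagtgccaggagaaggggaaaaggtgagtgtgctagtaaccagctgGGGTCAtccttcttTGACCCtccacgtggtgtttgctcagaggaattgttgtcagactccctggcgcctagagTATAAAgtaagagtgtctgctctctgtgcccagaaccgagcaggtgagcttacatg
Apoa2 (chr1:171224804-171225053, plus strand): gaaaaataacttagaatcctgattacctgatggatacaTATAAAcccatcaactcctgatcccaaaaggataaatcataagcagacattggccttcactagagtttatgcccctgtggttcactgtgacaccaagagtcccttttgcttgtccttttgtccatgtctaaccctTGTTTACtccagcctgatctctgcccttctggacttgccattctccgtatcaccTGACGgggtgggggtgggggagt

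The 9 motifs were searched on both strands of those 250 bases. They were the HNF4 sites CAAAGTCCA and CAAAGTTCA, the nuclear receptor hexamers, which read AGGTCA or GGGTCA, and the TATA box, TATAAA. The others were a CREB family motif of TGACG, an AP-1 motif of TGANTCA, a FOXA motif of TGTTTAC and an HNF1 motif of GTTAAT. The Apoa4 window held CAAAGTTCA, which 0.338% of all 32536 windows held. The Apoc2 window held the first nuclear receptor hexamer, the CREB family motif as its reverse complement and the HNF1 motif, which 14.04%, 17.9% and 6.47% of all windows held. The Apoa5 window held 2 matches to the second hexamer, in opposite orientations, with a TATA box nearer the start site; 11.7% and 12.3% of all windows held these. The Apoa2 window held a TATA box, the FOXA motif (in 3.17% of all windows) and the CREB family motif. No motif of the list was found in both genes that rose. A match is a description of the letters alone.

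The relation between genes of opposed function changed along with their levels. The FPKM ratio of Apoc2 to Apoc3, the activator and the brake of lipid clearance, was 0.150, 0.226 and 3.13 in male normal, precancerous and tumour liver. In females it was 0.151, 0.327 and 3.08. The sexes were thus almost level in normal liver and in tumours. The FPKM ratio of Apoa1 to Apoa2 was 1.13, 1.72 and 5.66 in male normal, precancerous and tumour liver, and 1.71, 3.14 and 5.27 in the same female tissues. It was highest in tumours in both sexes, with more Apoa1 and less Apoa2 in the male tumour and mainly less Apoa2 in the female one. The FPKM ratio of Apob to Mttp stayed between 5.03 and 7.92 in all 6 libraries. The FPKM ratio of Apoa4 to Apoa1 was 0.0213, 0.0651 and 0.269 across the male tissues and 0.0269, 0.0657 and 0.454 across the female ones, highest in both tumours. No test was run on the ratios, and their absolute size depends on the gene lengths used.

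**Figure D5:**
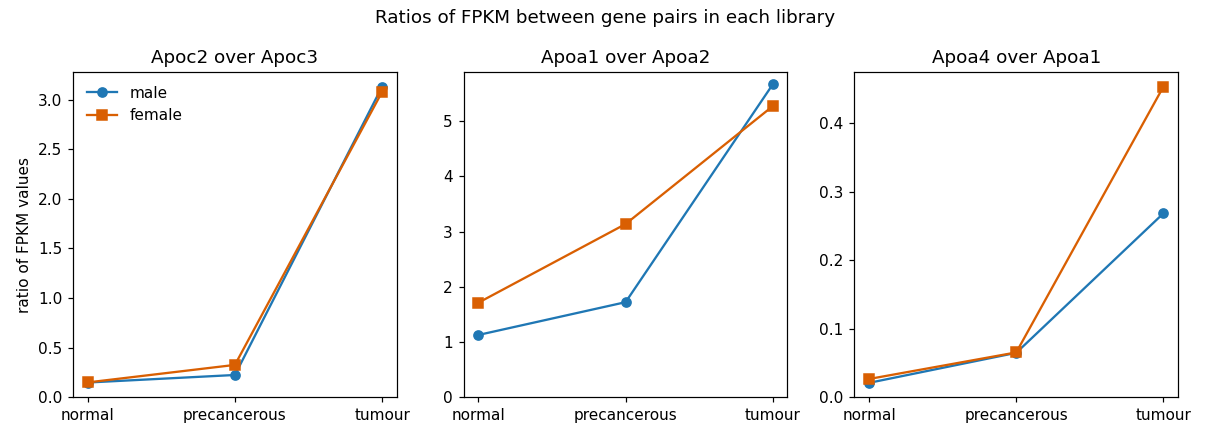
Ratio of FPKM values (y axis, from 0) for 3 gene pairs in normal, precancerous and tumour liver (x axis), with circles for males and squares for females. Apoc2 over Apoc3 lies under 0.33 in normal and precancerous liver of both sexes and above 3 in both tumours.

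Males were set against females over all tissues, a contrast that also sets 9 months against 15 months of age. Of the opposite-strand genes, 2 had counts almost only in males. Gm43691, opposite Mttp, had 23, 23 and 38 counts in male normal, precancerous and tumour liver and 0 in each female library, and Gm10680, opposite Apoa4, had at most 1 in females. Whether male and female libraries were counted alike was not tested. Of the 10 genes, Apoc1 was higher and Apoe lower in males, where 19.1% of all tested genes were higher and 18.2% lower, 37.3% in all. Of those calls 51.2% were higher in males, and 63.0% when libraries were scaled by their totals alone. In males Apoc1 had an FPKM of 2949.7 in normal, 2372 in precancerous and 2040.1 in tumour liver, and in females of 1811, 1373 and 1499 (log2 fold change 0.56, SE 0.15, edgeR adjusted p = 0.0415). It was the only 1 of the 10 with every male library above every female one, which 22.9% of all tested genes showed; none of the 10 had every male library below every female one, against 11.3% of all.

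Apoe encodes the ligand that lets liver receptors take up remnant particles, and macrophages make it as well as hepatocytes. In males its FPKM was 765 in normal, 827 in precancerous and 674 in tumour liver, and in females it was 2852, 2459 and 816 (log2 fold change -1.35, SE 0.35, edgeR adjusted p = 0.0367). The gap was wide in normal and precancerous liver and narrow in tumours: male minus female was -1.90, -1.57 and -0.27 in log2(FPKM + 1). Equally, Apoe differed between tumour and precancerous liver by -0.29 in males and -1.59 in females. A sex-by-tumour term, added after seeing the data and leaving 1 residual degree of freedom, gave Apoe a male minus female difference of 1.42 (SE 0.30, edgeR adjusted p = 0.293) between tumour and the other tissues. None of the 10 genes passed for this term, where 0.114% of all tested genes did. Apoe and Apoa1 (1.13, adjusted p = 0.335) had an unadjusted edgeR p under 0.05, as did 919 of the 11435 tested genes. For Apoe, tumour against precancerous liver gave a log2 fold change of -0.90 (SE 0.42, edgeR adjusted p = 0.178) over both sexes. It was -1.70 without the male tumour and -0.25 without the female tumour. Tumour against normal liver gave -0.99 (SE 0.43, edgeR adjusted p = 0.136), with -1.74 and -0.29 without the male and the female tumour. Each fit without a tumour held 1 tumour library and so no spread between tumours.

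Macrophage markers moved with Apoe in part. The 14 macrophage and Kupffer cell markers gave an FPKM sum of 293 in normal, 421 in precancerous and 215 in tumour liver of males, and of 459, 628 and 353 in females. Of 13 tested markers 9 were lower in males than in females, and 9 fell and 1 rose between tumour and precancerous liver; of all tested genes 18.2% were lower in males, and 12.1% fell and 13.8% rose in tumours. None of the markers had at most 3 counts in every library. Their sum was higher in precancerous than in normal liver in both sexes, where Apoe was nearly level. Their part in the Apoe result was not tested. The sex calls of Apoe and Apoc1 were lost without any single normal or precancerous library, with adjusted p between 0.116 and 0.203 for Apoe and between 0.106 and 0.252 for Apoc1; over 15 alternatives they ranged from 0.000438 to 0.203 and from 0.00112 to 0.252.

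The other genes of the pathway were read from 5 lists. Their counts stand beside the same shares of all tested genes: 13.8% rose and 12.1% fell between tumour and precancerous liver, 17.3% and 16.1% between tumour and normal liver, and 19.1% were higher and 18.2% lower in males than in females. The median log2 fold change of all tested genes between tumour and precancerous liver was 0.03. Between precancerous and normal liver, 1807 of the 11435 tested genes had an unadjusted edgeR p under 0.05. Of 13 tested further apolipoprotein genes, 1 rose and 7 fell between tumour and precancerous liver (median log2 fold change -0.77). The riser was Apom, which encodes a carrier of sphingosine 1-phosphate on HDL: it had 559 and 467 FPKM in male and female tumours against 217 and 211 FPKM in male and female precancerous liver (log2 fold change 1.23, SE 0.18, edgeR adjusted p = 0.01). Apol9a and Apol9b, near-identical copies whose counts may be split, had log2 fold changes of -1.15 and -1.35. Against normal liver 1 rose and 9 fell. Set against normal liver, precancerous liver gave 0 calls of the 13 with edgeR and DESeq2, with 1 at an unadjusted edgeR p under 0.05. Between males and females 2 of the 13 were higher and 1 lower in males.

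Among 24 partners of assembly and secretion, 6 rose and 2 fell between tumour and precancerous liver (median 0.38), beside 13.8% and 12.1% of all tested genes. Plin2, a coat protein of lipid droplets, had 139 and 153 FPKM in male and female tumours against 39.1 and 64.9 FPKM in male and female precancerous liver (log2 fold change 1.504, SE 0.20, edgeR adjusted p = 0.00815). Pla2g12b, needed in mice for full VLDL secretion, rose (log2 fold change 0.95, adjusted p = 0.0058). So did Cidec, which helps droplets fuse (log2 fold change 2.97, adjusted p = 0.00941), with 3.50 and 3.70 FPKM in male and female tumours against 0.622 and 0.346 FPKM in male and female precancerous liver. Cideb, whose product supports VLDL lipidation, had a log2 fold change of -0.65 (adjusted p = 0.0467). P4hb, which encodes the protein disulfide isomerase subunit that pairs with MTTP, had 0.34 (adjusted p = 0.222). Apobec1, the editor of Apob mRNA and also 1 of the enterocyte markers, rose by 0.69 (adjusted p = 0.0403). Against normal liver 6 rose and 2 fell, and in males 5 were higher and 3 lower than in females. In precancerous against normal liver, edgeR and DESeq2 called 0 of the 24, with 1 at an unadjusted edgeR p under 0.05.

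Of 12 tested genes of lipases and plasma remodelling, 1 rose and 6 fell between tumour and precancerous liver (median -0.58). Lpl, which encodes the lipase that apolipoprotein C-II activates, had 21.6 and 31.1 FPKM in male and female tumours against 4.30 and 7.32 FPKM in male and female precancerous liver (log2 fold change 2.16, SE 0.28, edgeR adjusted p = 0.00811). Lipc, the hepatic lipase, had 10.1 and 8.11 FPKM in male and female tumours against 63.9 and 70.0 FPKM in male and female precancerous liver (log2 fold change -2.91, SE 0.25, edgeR adjusted p = 0.00345). Lipg, the endothelial lipase, and Gpld1 had log2 fold changes of -2.01 and -1.41, and Lcat, which esterifies HDL cholesterol, had -1.03 (adjusted p = 0.0241). Against normal liver 3 rose and 6 fell, with Abca1 and Abcg1, which export cellular cholesterol, joining Lpl. Between precancerous and normal liver edgeR called 0 of the 12 (5 at an unadjusted p under 0.05) and DESeq2 called 4, Abca1, Abcg1, Angptl4 and Lipg. The edgeR log2 fold changes had Abcg1 at 1.13 (adjusted p = 0.0621) and Angptl4, an inhibitor of lipoprotein lipase, at -1.37 (adjusted p = 0.0698). In males 7 of the 12 were lower than in females and none higher, beside 18.2% and 19.1% of all tested genes.

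Receptor and uptake genes split evenly, with 4 of 13 up and 4 down between tumour and precancerous liver (median -0.38), beside 13.8% and 12.1% of all tested genes, and likewise 4 and 4 against normal liver. Scarb1, the HDL receptor, rose by 0.63 (adjusted p = 0.0451), while Stab2 and Mylip had log2 fold changes of -1.12 and -0.97. Stab2 is also 1 of the endothelial markers and is counted among those that fell. Between precancerous and normal liver edgeR and DESeq2 called 0 of the 13, with 3 at an unadjusted edgeR p under 0.05, and 8 of 13 were lower in males than in females.

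Of 24 tested transcription factors known to act on apolipoprotein genes, 3 rose and 3 fell between tumour and precancerous liver (median -0.32), beside 13.8% and 12.1% of all tested genes, a share near that of all genes. Hnf4a, the chief hepatocyte activator of these genes, had 83.7 and 82.3 FPKM in male and female tumours against 76.4 and 78.1 FPKM in male and female precancerous liver (log2 fold change 0.07, SE 0.17, edgeR adjusted p = 0.788). Foxa3 rose by 0.93, and Nr1h4, the bile acid receptor FXR, had a log2 fold change of -1.46 (adjusted p = 0.00683). Srebf2, an activator of cholesterol synthesis, had an FPKM of 11.03 in normal, 6.17 in precancerous and 14.8 in tumour liver of males, and of 21.6, 10.7 and 21.9 in females. It rose by 1.12 against precancerous liver (adjusted p = 0.00697), with log2 fold changes of -0.93 between precancerous and normal liver (adjusted p = 0.0875) and 0.18 between tumour and normal liver (adjusted p = 0.343). Srebf1, an activator of fatty acid synthesis, ran the other way, with an FPKM of 17.6, 69.6 and 27.7 across the male tissues and 33.6, 81.8 and 29.2 across the female ones. Its log2 fold change was -1.43 between tumour and precancerous liver (adjusted p = 0.0171), 1.61 between precancerous and normal liver (adjusted p = 0.1003) and 0.18 between tumour and normal liver (adjusted p = 0.631). Creb3l3, known in mice as an activator of Apoa4 and Apoc2, had -0.19 against precancerous liver (adjusted p = 0.366) and -0.51 against normal liver (adjusted p = 0.0438). Against normal liver 2 rose and 5 fell. Between precancerous and normal liver edgeR called 0 of the 24 (4 at an unadjusted p under 0.05) and DESeq2 called 3, Nr1d1, Srebf1 and Srebf2. In males 7 of the 24 were lower than in females and none higher.

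For the 4 genes whose log2(FPKM + 1) spanned at least 2 over the 6 libraries, the 3 genes of closest pattern were sought by the root mean square difference of centred values. Gldn (0.28), Btg2 (0.31) and 2310034O05Rik (0.32) were nearest to Apoa4, with Btg2, an antiproliferative gene, at 62.2 and 59.7 FPKM in male and female tumours against 2.74 and 2.77 FPKM in male and female normal liver. Fgl2 (0.13), Anxa2 (0.24) and Tlr1 (0.25) were nearest to Apoc2. Cyp4f15 (0.10), Pbld2 (0.13) and Pipox (0.15) were nearest to Apoa5; Pipox, which encodes a peroxisomal oxidase, had 29.3 and 32.0 FPKM in male and female tumours against 84.3 and 119 FPKM in male and female normal liver. Pagr1a, Klf2 and Sult2a-ps1 were nearest to Apoe at 0.23 to 0.25. Klf2 had an FPKM of 2.62 in normal, 2.99 in precancerous and 1.62 in tumour liver of males and of 11.7, 10.4 and 4.38 in females. Gldn, 2310034O05Rik, Tlr1, Pagr1a and Sult2a-ps1 lay under 1 FPKM in some libraries, where adding 1 compresses differences. Sult2a-ps1 had 0 FPKM in every male library.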

How the data were processed

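The members and gene lists were chosen with earlier results of these data known. Whole-number counts and FPKM values were deposited by the authors in 1 table with 1 column per library; the deposited FPKM equals the count over 1 length per gene and the library total (ratio 0.99996 to 1.00004 over 9962 genes with at least 20 counts everywhere). The submitters' processing notes list TopHat2 2.0.9, Cuffdiff, GRCm38 and mm10, with no role for any. Libraries were made with a stranded kit, per the labels' protocols; whether counting used strand is not stated in those protocols or notes.

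The deposited counts of genes reaching an FPKM of 1 in 2 or more libraries entered edgeR 4.0.16 (R 4.3.3) with TMM scaling. The two-sided test used additive terms for sex and tissue, leaving 2 residual degrees of freedom. The SE is the fold change over the root of its F value. limma 3.58.1 and DESeq2 1.42.0 were alternatives, among other scalings, filters and leaving out each library. A sex-by-tumour term was added after seeing the data. The tests were tried on simulated counts. All members are named; from each list, mainly the tested genes with the smallest p per comparison, up to 3, and others for their known tie to a member, chosen after their values were seen. Single pairs of libraries are differences of log2(FPKM + 1) with no test. Exon overlaps come from GENCODE vM21 (GRCm38). Markers of stellate, endothelial, cholangiocyte, lymphocyte and red blood cells are given in the closing section. Some genes of the receptor and uptake list are not reported here by name.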

Additional observations from a re-analysis of the deposited data

Results flagged for a closer look

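In several genes the difference between tissues had opposite signs in males and females, with 1 library per tissue and sex. The sex-by-tumour term, which set tumour against the other tissues, gave 1.13 for Apoa1 and -0.35 for Apoc1 (edgeR adjusted p = 0.335 and 0.848). Between precancerous and normal liver the differences between the sexes were not tested. Opposite signs alone do not show opposite movement, as many of the values below are small, those of Mttp most of all. Values are differences in log2(FPKM + 1). Between tumour and precancerous liver, Apoa1 differed by 0.98 (0.9793) in males and -0.22 in females, and Apoc1 by -0.2177 in males and 0.13 in females. Between precancerous and normal liver, Apoc3 differed by 0.4863 in males and -0.40 in females, Apob by -0.3369 and 0.30, Apoa5 by 0.1773 and -0.41, Apoe by 0.1115 and -0.21, and Mttp by -0.0146 and 0.08 in males and females. By size of the smaller of its male and female differences, Apoc3 stood first among these genes. Apoc3 had 779.8 FPKM in male precancerous liver against 556 FPKM in male normal liver. In females it had 668 FPKM in precancerous liver against 879.95 FPKM in normal liver.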

How the results depend on the processing

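Of the tests of single members under other scalings, tools and filters, 368 kept direction and side of the threshold, 11 lost the call, 7 gained it and 4 changed sign: Apoc3 between precancerous and normal liver without a sex term (-0.003), and Apoa1 between males and females with library totals (0.0657) and with limma at either pseudocount (0.0705). Genes called between tumour and precancerous liver were 2965, and 1783 with an FPKM minimum of 5. Without a sex term 113 were called and 0 members passed edgeR, with 5 members at an unadjusted p under 0.05. Of all tested genes 2173 had such a p in that fit. Leaving out 1 library gave 457 to 2958 genes and 0 to 5 members. Between precancerous and normal liver 29 genes were called, against 368 with DESeq2 (2 members), 3 and 10 with limma at pseudocounts of 1 and 0.1, 183 with no filter (1 member), 9 with an FPKM minimum of 5 and 0 without a sex term; leaving out 1 library gave 0 to 350 genes and 0 to 1 members. Between tumour and normal liver 3819 genes were called, 2262 with an FPKM minimum of 5 and 690 without a sex term (3 members); leaving out 1 library gave 1939 to 2701 genes and 3 to 5 members. Between males and females 4270 genes were called, 2315 with an FPKM minimum of 5; DESeq2 called 4 members and limma 1 and 0 at pseudocounts of 1 and 0.1; leaving out 1 library gave 698 to 3976 genes and 0 to 2 members. Signs that changed when a library was left out were those of small log2 fold changes: between tumour and precancerous liver Apoa1 (-0.23 to 0.93) and Apoc1 (-0.23 to 0.0824); between precancerous and normal liver Apoa5 (-0.46 to 0.24), Apob (-0.36 to 0.33), Apoc3 (-0.31 to 0.42), Apoe (-0.50 to 0.48) and Mttp (-0.0470 to 0.13); between males and females Apoa1 (-0.43 to 0.18) and Mttp (-0.0294 to 0.11). The cause of these changes was not tested, except that a left-out library leaves 1 residual degree of freedom. Without Alb the number of members called was the same in all 4 comparisons. No value without a sex term exists for males against females. As the groups hold 1 library each, no replicate block could be fitted beyond the sex term.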

Other observations

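Markers of other cell types moved between tumour and precancerous liver as follows, where 13.8% of all tested genes rose and 12.1% fell. Of 9 stellate cell markers 4 rose and 2 fell, and of 7 tested endothelial markers 1 rose and 3 fell. Of 3 tested lymphocyte markers 2 rose, and of 5 red blood cell genes 1 fell. The lymphocyte risers had few counts: Cd3e had 7 and 43 in male and female tumours against 3 and 7 in male and female precancerous liver. Nkg7 had 17 and 37 against 1 and 7. Of 3 tested cholangiocyte markers 2 rose, and the 7 listed summed to 121 and 139 FPKM in male and female tumours against 9.06 and 14.7 FPKM in male and female precancerous liver. Spp1 made up most of these sums, with 115 and 129 FPKM in male and female tumours against 6.67 and 11.8 FPKM in precancerous liver. Krt7, Krt19, Cftr and Cldn7 were not tested and had at most 1.07 FPKM in any library. Krt19 had 0.350 FPKM in the male tumour against 0.497 FPKM in male precancerous liver. In females Krt19 had 1.07 FPKM in the tumour against 0.399 FPKM in precancerous liver. Krt7 likewise was lower in the male tumour and higher in the female tumour. Cftr had 15 and 34 counts in male and female tumours against 4 and 3 in male and female precancerous liver. Cldn7 had 11 and 27 counts against 3 and 3. Of 12 hepatocyte markers 2 fell (Cps1 and Tat) and none rose. Their part in the results on apolipoprotein genes was not tested.

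The gene length implied by the deposited counts and FPKM was 5592 bases for Apoe, longer than its span of 3058 bases in the same table, and 1539 bases for Apoa2, longer than its span of 1326 bases. For Apoa4 it equalled the annotated exon length of 1815 bases.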
